A study of Homo sapiens with 9 samples.

Results

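The p53 target genes described here are 30 genes, listed by name, whose transcription p53 is known to raise. All 30 were found among the 60880 gene rows of each library, and all 30 passed the filter on low counts. The libraries came from LNCaP, an established line of androgen-responsive prostate cancer cells. The series asks what the UDP-glucuronosyltransferase UGT2B28, an enzyme that conjugates androgens and so inactivates them, does in these cells. It holds 9 RNA-seq libraries in 3 groups of 3. Rescue libraries (titled KD4OE) came from knockdown cells that carry UGT2B28 again, with 1 mg/mL G418 named as the selection antibiotic. Knockdown libraries (titled KD4) came from cells with UGT2B28 knocked down, with 3 µg/mL puromycin named for selection. Control libraries (titled NT) have no antibiotic named for them, and every library carries the label 24 h. As titled, the rescue cells derive from the knockdown cells, so both groups would carry the knockdown construct. The knockdown is titled as a single line, KD4, so its own history and the loss of UGT2B28 cannot be told apart. The rescue is likewise titled as a single line, KD4OE, so its history and the added UGT2B28 cannot be told apart either. The antibiotic named differs between all 3 groups. Any part of it therefore cannot be told apart from that of the group in any comparison. No label says that the 3 libraries of a group came from separate cultures, so the p-values rest on the spread among these libraries and may reflect technical variation alone.

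The p53 protein is a transcription factor that is held low in unstressed cells by MDM2, a ubiquitin ligase that is itself a p53 target. When DNA damage or other stress frees p53 from MDM2, p53 binds response elements near its targets and raises genes that halt the cell cycle, repair DNA, change metabolism or start cell death. Several targets, among them MDM2, PPM1D and CCNG1, act back on p53 and shut the response down. The p53 response element is a pair of decamers with a short spacer, and each decamer has a short core with purines on its left and pyrimidines on its right.

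Promoter sequence was at hand for 25 of the 30 genes, as 36 windows of 300 bases (250 before and 50 after a transcription start) from RefSeq, build GRCh38.p14. The p53 consensus decamer, which is its own reverse complement and so was read on both strands at once, was found in 7 of these 36 windows (19.4%). Of all 35116 windows in the table, 2329 (6.63%) held it. A pair of decamers within 13 bases of each other was found for DDB2 alone among the 25 genes, against 10 windows in the whole table (0.0285%). The stretches with a decamer are shown because they are the only letters in these windows that match the motif, with the decamer in capitals and read along each gene's strand. The DDB2 pair began at transcript base 6, after the start. For DDB2, FAS, SESN1 and FDXR, windows at other starts of the same gene held no decamer. A match in this window is a description and not a binding site.
DDB2, chr11:47214959-47215003, plus strand: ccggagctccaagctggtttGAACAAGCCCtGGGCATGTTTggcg
AEN, chr15:88621286-88621335, plus strand: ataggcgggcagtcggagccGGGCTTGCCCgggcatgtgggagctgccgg
FAS, chr10:88991289-88991338, plus strand: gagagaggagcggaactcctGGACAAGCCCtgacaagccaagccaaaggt
SESN1, chr6:109009008-109009057, minus strand: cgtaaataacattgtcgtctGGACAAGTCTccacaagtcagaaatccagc
FDXR, chr17:74872976-74873025, minus strand: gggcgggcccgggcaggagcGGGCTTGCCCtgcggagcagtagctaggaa
PLK2, chr5:58460189-58460238, minus strand: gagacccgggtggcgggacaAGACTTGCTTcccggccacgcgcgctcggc
RPS27L, chr15:63157507-63157556, minus strand: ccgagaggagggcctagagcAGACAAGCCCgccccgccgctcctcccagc

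The libraries held 20300744 to 26459528 gene counts. UGT2B28 had 1124, 1554 and 1857 counts in the rescue libraries, against 17, 8 and 1 in the libraries labelled knockdown and 25, 4 and 10 in the control libraries. The knockdown was thus not detectable in these counts (log2 change −0.60 ± 0.62 SE against control, adjusted p = 0.52). The control cells hardly expressed the gene, and every direction given below for the knockdown group rests on its label. UGT2B28 was higher in rescue than in control by 6.81 ± 0.32 (log2, SE, adjusted p = 2.6e-09). The rescue group thus had the gene far above the control level and was not a return to it. The mitochondrial share of gene counts was 3.19 to 3.86% in rescue, 2.56 to 2.89% in knockdown and 4.64 to 5.68% in control libraries. All 8 luminal prostate markers were expressed, and their summed level was 8517 to 9460 CPM in rescue, 8467 to 8949 CPM in knockdown and 3671 to 3953 CPM in control libraries (CPM, counts scaled to library size with TMM factors). The markers did not move alike: KLK3, KLK2 and TMPRSS2 rose by 1.39 to 3.76 (log2) in knockdown against control, while KRT8 was called lower in rescue than in control (−0.21 ± 0.08, adjusted p = 0.026) and KRT18 was not called there (0.07 ± 0.07, adjusted p = 0.5). Most markers of other cell types stayed below 1 CPM in every library: 3 of 4 basal, 3 of 4 neuroendocrine, 4 of 5 fibroblast, 2 of 3 endothelial and 4 of 5 immune genes. The exceptions were KRT14, SYP, COL1A1, VWF and CD68. COL1A1 had 57.9 to 70.6 CPM in rescue, 42.4 to 52.6 CPM in knockdown and 62 to 71.8 CPM in control libraries, and was called lower in knockdown than in control (−0.50 ± 0.10, adjusted p = 0.00018). KRT14 (1.22 ± 0.29, adjusted p = 0.0017) and VWF (1.23 ± 0.23, adjusted p = 0.00012) were called higher in knockdown than in control. The part of these markers in the results below was not tested. All 30 genes kept their calls in all 3 comparisons when mitochondrial genes were left out of the fit. In RNA from whole cultures, a gene that more cells express and a gene with more RNA per cell cannot be told apart.

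Set against control cells, knockdown cells had more RNA of many p53 targets, among them CDKN1A, GADD45A, PLK2, BBC3 and SPATA18, and less of APAF1, FAS and DDB2. Of the 30 genes, 14 rose and 3 fell in knockdown (edgeR quasi-likelihood test, Benjamini-Hochberg adjusted p under 0.05 over 18389 genes), while 16.5% of all genes tested rose and 15.6% fell (32.1% in either direction). Most of these genes are well expressed, and calls are commoner among such genes. Of the 27 with a mean of at least 10 CPM, 12 rose and 3 fell, where 21.8% of all genes at that level rose and 20% fell. Knockdown libraries lay wholly above control libraries for 14 of the 30 genes and wholly below for 3, as did 21.4% and 21.1% of all genes tested. The median log2 change was 0.20 over the 30 genes and 0.01 over all genes tested.

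In rescue cells, set against knockdown cells, 4 of the 30 genes rose and 0 fell, while 5.2% of all genes tested rose and 4.88% fell (10.1% in either direction). The 4 were CDKN1A, ZMAT3, PHLDA3 and SPATA18. At an unadjusted p under 0.05, 6 of the 30 were higher in rescue and 1 was lower, and neither DESeq2 nor limma voom called any of them lower. Of the 27 genes with at least 10 CPM, 3 rose, where 7.33% of all genes at that level rose and 7.42% fell. Rescue libraries lay wholly above knockdown libraries for 7 of the 30, where 13.7% of all genes tested did so and 13.7% lay wholly below. The median log2 change was 0.07 over the 30 genes. None of the 14 genes raised in knockdown against control passed the test for a fall in rescue against knockdown. With 4.88% of all genes tested falling there, few or no falls among 14 genes is near the background. The share of falls among all genes raised in knockdown was not computed.

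Rescue cells set against control cells had 17 of the 30 genes higher and 3 lower, while 19% of all genes tested rose and 18.8% fell (37.8% in either direction). Of the 27 genes with at least 10 CPM, 15 rose and 3 fell, where 24.5% of all genes at that level rose and 24.8% fell. Rescue libraries lay wholly above control libraries for 19 of the 30 and wholly below for 3, as did 24.1% and 24% of all genes tested. The median log2 change was 0.29 over the 30 genes. The 3 comparisons share libraries, so they are not independent of each other. By group means, 17 of the 30 genes ran highest in rescue, next in knockdown and lowest in control, 5 ran highest in knockdown, next in rescue and lowest in control, and 5 ran highest in control, next in rescue and lowest in knockdown. The shares of all genes tested in each order were not computed. Some of the 17, among them MDM2, SESN1, TP53INP1 and POLH, passed no test, so these orders only describe the means. The plot of fold changes shows the changes over the roles of the genes.

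**Figure D1:**
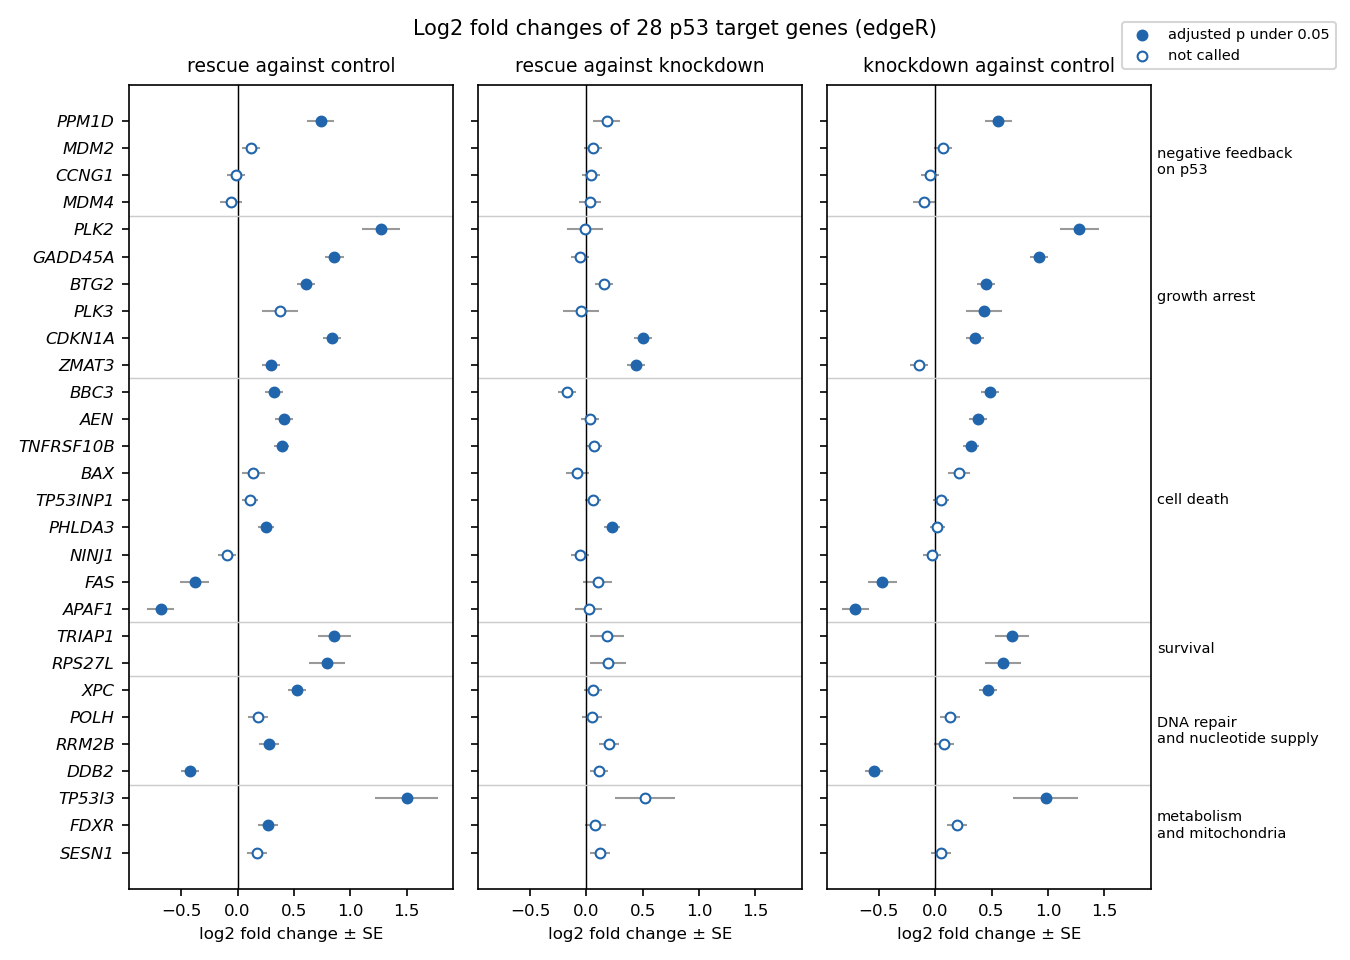
Log2 fold changes (x axis, with standard errors) of 28 p53 target genes, in 3 panels for rescue against control, rescue against knockdown and knockdown against control, grouped by role. Filled points passed an adjusted p of 0.05. SPATA18, whose changes are far larger, and TIGAR, with very few counts, were left out. The filled points on the left of 0 are APAF1, FAS and DDB2, and the middle panel has filled points for CDKN1A, ZMAT3 and PHLDA3 alone.

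Of the 6 growth arrest genes, 5 rose in knockdown against control, 2 in rescue against knockdown and 5 in rescue against control, beside 16.5%, 5.2% and 19% of all genes tested in these comparisons. CDKN1A encodes p21, the inhibitor of cyclin-dependent kinases that carries most of the p53-driven arrest. Its level was 583, 660 and 667 CPM in rescue, 421, 488 and 446 CPM in knockdown and 320, 372 and 373 CPM in control libraries. The groups stand in 3 separate steps with no overlap between any pair. CDKN1A was higher by 0.35 ± 0.08 (log2, SE) in knockdown than in control (adjusted p = 0.0013). It was higher again by 0.50 ± 0.08 in rescue than in knockdown (adjusted p = 8.6e-05), and by 0.84 ± 0.08 in rescue than in control (adjusted p = 1.6e-09).

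GADD45A, a stress protein that binds p21 and PCNA and acts at the passage into mitosis, had 159, 183 and 148 CPM in rescue, 156, 184 and 169 CPM in knockdown and 83.1, 94 and 92.5 CPM in control libraries. Rescue and knockdown libraries overlapped throughout, and both stood clear of control. The log2 change was 0.92 ± 0.08 in knockdown against control (adjusted p = 7.6e-10) and −0.06 ± 0.08 in rescue against knockdown (adjusted p = 0.76). PLK2, a polo-like kinase of the centriole cycle and the stress response, had 12.6, 19.8 and 16 CPM in rescue, 12.4, 18 and 18.4 CPM in knockdown and 5.99, 7.01 and 7.13 CPM in control libraries. Its pattern was that of GADD45A, with every rescue and knockdown library above every control library. PLK2 rose by 1.28 ± 0.17 in knockdown against control (adjusted p = 1.3e-06), and rescue differed from knockdown by −0.01 ± 0.16 (adjusted p = 0.99).

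BTG2, an antiproliferative cofactor of mRNA deadenylation, averaged 132 ± 3.85 CPM in rescue, 118 ± 11.1 CPM in knockdown and 86.1 ± 3.59 CPM in control (SD, n = 3 each). It rose by 0.45 ± 0.08 in knockdown (adjusted p = 3.1e-05) and by 0.61 ± 0.08 in rescue (adjusted p = 2.2e-07), each against control. PLK3, a related kinase, rose by 0.43 ± 0.16 in knockdown against control (adjusted p = 0.045), but the libraries overlapped, at 15.5, 18.2 and 12.5 CPM in knockdown against 10.9, 13.9 and 9.49 CPM in control. That call of PLK3 was lost with DESeq2 (adjusted p = 0.055) and without any of rescue replicate 3, knockdown replicate 1, knockdown replicate 2, control replicate 1 or control replicate 3 (adjusted p = 0.057, 0.096, 0.24, 0.091 and 0.21).

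ZMAT3, an RNA-binding zinc finger protein that regulates splicing and RNA stability downstream of p53, did not share this pattern. It had 95.8, 96.5 and 103 CPM in rescue, 74.3, 76.9 and 66.7 CPM in knockdown and 76.4, 80.4 and 83.2 CPM in control libraries. The rescue libraries stood above all others, while knockdown and control overlapped. ZMAT3 rose by 0.44 ± 0.08 in rescue against knockdown (adjusted p = 0.00029) and by 0.30 ± 0.08 in rescue against control (adjusted p = 0.0028), and its change in knockdown against control was −0.14 ± 0.08 (adjusted p = 0.19).

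**Figure D2:**
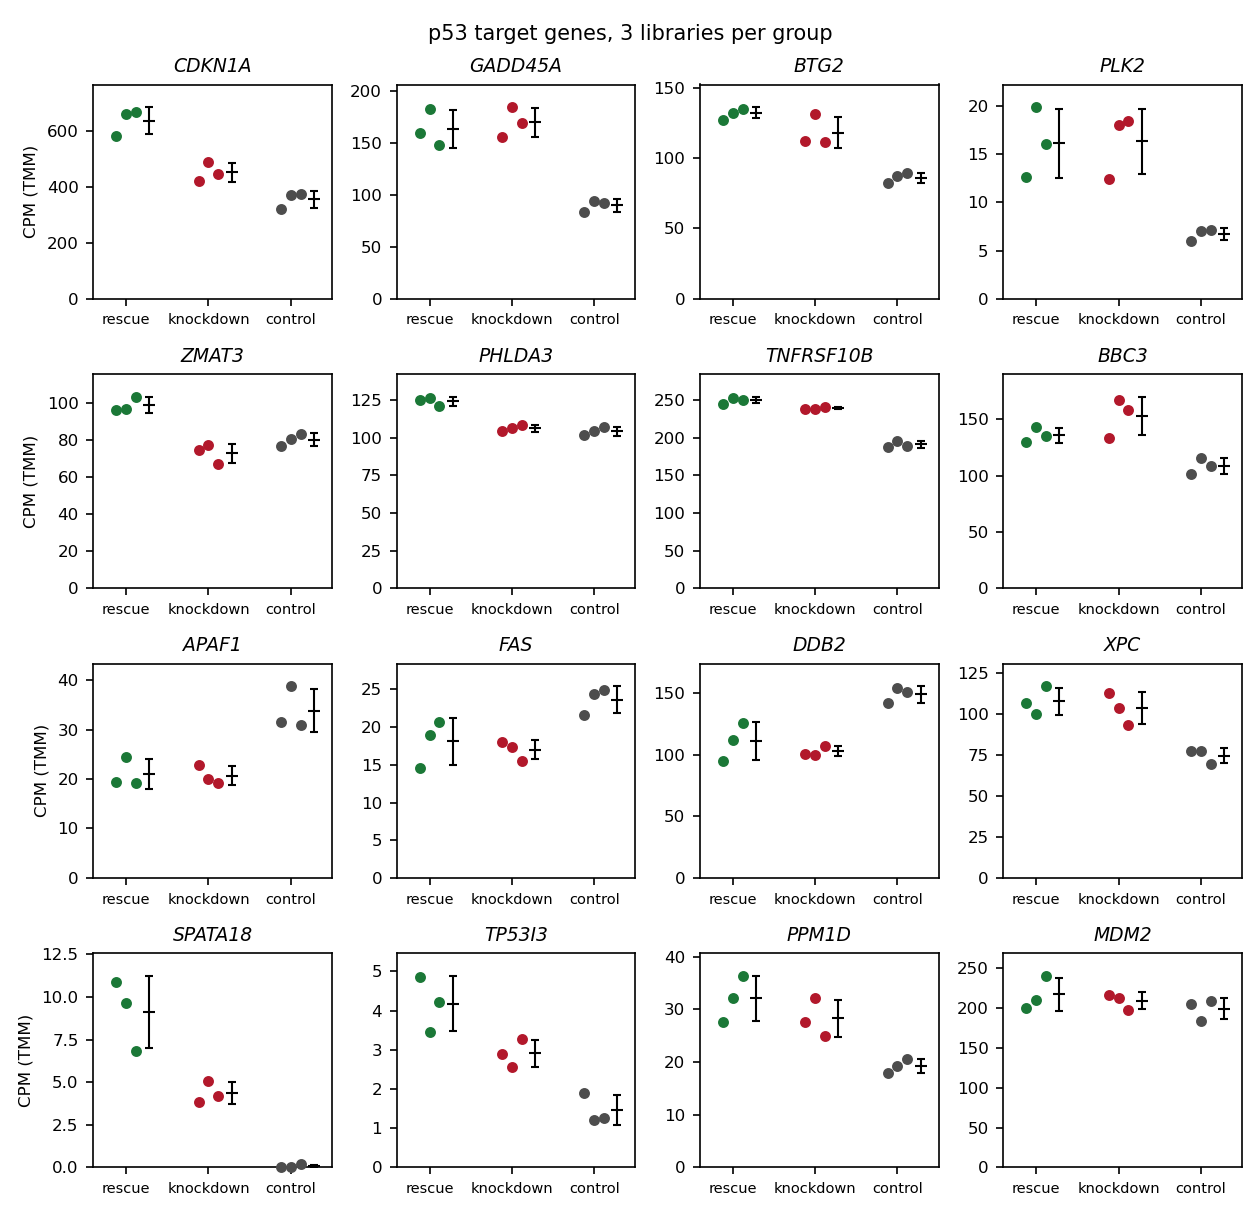
Levels of 16 p53 target genes in CPM (y axis, from 0) in each library, with rescue, knockdown and control from left to right. Points are libraries, and bars beside them give the mean ± SD of 3 libraries. CDKN1A forms 3 steps, GADD45A and PLK2 are alike in rescue and knockdown and lower in control, APAF1, FAS and DDB2 are higher in control, and MDM2 overlaps in all groups.

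Of the 4 genes that act back on p53, PPM1D alone was called, and it rose in both comparisons with control. With 32.1% and 37.8% of all genes called there in either direction, 1 of 4 is no more than the background. MDM2 had 200, 210 and 240 CPM in rescue, 216, 213 and 197 CPM in knockdown and 205, 184 and 208 CPM in control libraries. All 3 groups overlapped, and MDM2 passed no test (log2 change 0.07 ± 0.08 in knockdown against control, adjusted p = 0.56, and 0.12 ± 0.08 in rescue against control, adjusted p = 0.22). MDM2 was thus not among the raised targets at this precision, although CDKN1A was. Exons of other genes cover 9.21% of the MDM2 exon length in GENCODE v29, some of them on the opposite strand.

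PPM1D encodes the WIP1 phosphatase, which takes activating phosphates off p53 and its kinases. It had 27.7, 32.2 and 36.3 CPM in rescue, 27.7, 32.1 and 25 CPM in knockdown and 18, 19.2 and 20.6 CPM in control libraries. Every rescue and knockdown library was above every control library. PPM1D rose by 0.56 ± 0.12 in knockdown against control (adjusted p = 0.00053) and by 0.74 ± 0.12 in rescue against control (adjusted p = 1e-05). MDM4, the partner of MDM2 that blocks the p53 activation domain, had 71.7, 82.6 and 95.4 CPM in rescue, 83.8, 76.2 and 84.3 CPM in knockdown and 100, 78 and 82.7 CPM in control libraries. All groups overlapped, and MDM4 passed no test. CCNG1, a cyclin that brings a phosphatase to MDM2, was also uncalled, at 428, 491 and 435 CPM in rescue, 437, 481 and 400 CPM in knockdown and 427, 485 and 453 CPM in control libraries.

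Cell death genes went both ways. Of 9, 3 rose and 2 fell in knockdown against control, 1 rose in rescue against knockdown, and 4 rose and 2 fell in rescue against control. Of all genes tested, 16.5% rose and 15.6% fell in knockdown against control, 5.2% rose in rescue against knockdown, and 19% rose and 18.8% fell in rescue against control, and for so few genes these shares are a loose guide. BBC3, which encodes PUMA, a BH3-only protein that frees the mitochondrial death pathway, had 130, 143 and 135 CPM in rescue, 134, 167 and 158 CPM in knockdown and 102, 116 and 109 CPM in control libraries. Control stood below both other groups. BBC3 rose by 0.49 ± 0.08 in knockdown (adjusted p = 2.2e-05) and by 0.32 ± 0.08 in rescue (adjusted p = 0.0022), each against control, and rescue differed from knockdown by −0.17 ± 0.08 (adjusted p = 0.2).

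TNFRSF10B, the death receptor for TRAIL also called DR5, had 245, 253 and 250 CPM in rescue, 238, 238 and 240 CPM in knockdown and 188, 196 and 189 CPM in control libraries. Its libraries were tight within each group, and rescue lay just above knockdown without a call (0.07 ± 0.07, adjusted p = 0.63). TNFRSF10B rose by 0.32 ± 0.07 in knockdown (adjusted p = 0.00037) and by 0.39 ± 0.07 in rescue (adjusted p = 2.8e-05), each against control. AEN, a nuclease that digests DNA and RNA in dying cells, averaged 112 ± 11.6 CPM in rescue, 110 ± 7.55 CPM in knockdown and 84.8 ± 6.93 CPM in control (SD, n = 3 each). AEN rose by 0.38 ± 0.08 in knockdown against control (adjusted p = 0.00081).

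APAF1, the core of the apoptosome that activates caspases once cytochrome c leaves the mitochondria, had 19.4, 24.4 and 19.2 CPM in rescue, 22.8, 20 and 19.2 CPM in knockdown and 31.6, 38.7 and 31 CPM in control libraries. Every control library was above every other library. APAF1 fell by 0.71 ± 0.12 in knockdown against control (adjusted p = 3.4e-05), and rescue differed from knockdown by 0.02 ± 0.12 (adjusted p = 0.94). FAS, the death receptor bound by FAS ligand, had 14.6, 19 and 20.7 CPM in rescue, 18, 17.4 and 15.5 CPM in knockdown and 21.6, 24.4 and 24.9 CPM in control libraries. It too was highest in control, and it fell by 0.47 ± 0.13 in knockdown against control (adjusted p = 0.0047). The fall of FAS by 0.38 ± 0.13 in rescue against control (adjusted p = 0.019) was lost without rescue replicate 1, where the log2 change was −0.25 (adjusted p = 0.16). It was also lost without control replicate 2 (−0.35, adjusted p = 0.057) or control replicate 3 (−0.34, adjusted p = 0.074).

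PHLDA3, which competes with AKT for membrane lipid and so restrains it, had 125, 126 and 121 CPM in rescue, 104, 106 and 108 CPM in knockdown and 102, 104 and 107 CPM in control libraries. Rescue stood apart, and knockdown and control overlapped. PHLDA3 rose by 0.23 ± 0.07 in rescue against knockdown (adjusted p = 0.03). That call was lost with no filter on low counts (adjusted p = 0.067) and without rescue replicate 1, rescue replicate 2, knockdown replicate 1 or knockdown replicate 2 (adjusted p = 0.1, 0.11, 0.097 and 0.07). Against control its rise in rescue was 0.25 ± 0.07 (adjusted p = 0.0049). Another gene on the same strand covers 19.1% of the PHLDA3 exon length, and reads there could be left uncounted.

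BAX, which opens the outer mitochondrial membrane, NINJ1, which ruptures the plasma membrane of dying cells, and TP53INP1, a cofactor of autophagy and p53-driven death, passed no test. NINJ1 had 93.7 to 106 CPM in rescue, 101 to 112 CPM in knockdown and 98.1 to 118 CPM in control libraries, and TP53INP1 had 245 to 250 CPM in rescue, 228 to 253 CPM in knockdown and 214 to 238 CPM in control libraries. The groups overlapped for both genes, except that every TP53INP1 rescue library was above every control library. BAX came closest in knockdown against control, with 34.5, 40.6 and 40.3 CPM in knockdown and 32.2, 34.2 and 33.1 CPM in control libraries. Those libraries did not overlap, but the change of 0.21 ± 0.10 was not called (adjusted p = 0.1), except without knockdown replicate 1 (adjusted p = 0.043).

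Both survival genes rose in knockdown and in rescue, each against control, and neither was called in rescue against knockdown (adjusted p = 0.54 for TRIAP1 and 0.55 for RPS27L). Of all genes tested, 16.5% rose in knockdown and 19% in rescue, each against control, and for only 2 genes these shares are a loose guide. TRIAP1, a small mitochondrial protein that restrains cytochrome c release, had 50.3, 63.8 and 48 CPM in rescue, 38.7, 57.7 and 47 CPM in knockdown and 24.7, 30.6 and 34.3 CPM in control libraries. Every control library was the lower one. TRIAP1 rose by 0.68 ± 0.15 in knockdown (adjusted p = 0.0025) and by 0.86 ± 0.15 in rescue (adjusted p = 0.00028), each against control. RPS27L, a ribosomal protein paralogue that binds MDM2, had 132, 149 and 139 CPM in rescue, 101, 131 and 136 CPM in knockdown and 60.8, 92 and 91 CPM in control libraries. Control replicate 1 was low, yet no library of another group reached down to control. RPS27L rose by 0.60 ± 0.16 in knockdown against control (adjusted p = 0.017). That rise missed the threshold when knockdown replicate 2 (adjusted p = 0.084) or knockdown replicate 3 (adjusted p = 0.064) was left out. Its rise of 0.79 ± 0.16 in rescue against control (adjusted p = 0.0032) was kept without any single library.

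Of the 4 genes of DNA repair and nucleotide supply, 1 rose and 1 fell in knockdown against control, where 16.5% of all genes tested rose and 15.6% fell. In rescue against control 2 rose and 1 fell, where 19% of all genes rose and 18.8% fell. None of the 4 was called in rescue against knockdown, and for so few genes these shares are a loose guide. XPC and DDB2 both find bulky or ultraviolet damage for nucleotide excision repair, and they moved in opposite directions. DDB2 had 95.2, 112 and 126 CPM in rescue, 101, 100 and 107 CPM in knockdown and 142, 154 and 151 CPM in control libraries. Control was highest with no overlap, and DDB2 fell by 0.54 ± 0.08 in knockdown (adjusted p = 9e-06) and by 0.42 ± 0.08 in rescue (adjusted p = 0.00015), each against control. DDB2, the gene with a decamer pair at 1 of its 2 starts in the windows read, was one of the 3 that fell. Of the other genes with a decamer, PLK2, AEN and RPS27L rose in knockdown against control, FAS fell, and SESN1 and FDXR were not called. Any part of the decamers in these changes was not tested. XPC had 107, 100 and 117 CPM in rescue, 113, 104 and 93.7 CPM in knockdown and 77.7, 77.3 and 69.4 CPM in control libraries. Control was lowest, and XPC rose by 0.47 ± 0.08 in knockdown (adjusted p = 5.7e-05) and by 0.53 ± 0.08 in rescue (adjusted p = 7.8e-06), each against control. Genes on the opposite strand cover 30.4% of the XPC exon length, and since the strand setting of the counting is not given in the sources used here, its level is uncertain to that extent.

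RRM2B, the p53-inducible ribonucleotide reductase subunit that supplies nucleotides for repair, had 213, 228 and 216 CPM in rescue, 200, 211 and 161 CPM in knockdown and 156, 186 and 199 CPM in control libraries. Rescue stood above both other groups, which overlapped. RRM2B rose by 0.28 ± 0.09 in rescue against control (adjusted p = 0.018), a call lost without rescue replicate 2 (adjusted p = 0.068) or control replicate 1 (adjusted p = 0.079). POLH, the polymerase that copies past ultraviolet lesions, had 46.9 to 54.4 CPM in rescue, 48.8 to 49.8 CPM in knockdown and 41.1 to 50.3 CPM in control libraries, and passed no test. It was called in rescue against control without control replicate 1 alone (adjusted p = 0.026).

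Among 5 genes of metabolism and mitochondria, 2 rose in knockdown against control, 1 in rescue against knockdown and 3 in rescue against control, beside 16.5%, 5.2% and 19% of all genes tested. SPATA18, which encodes Mieap, a p53-inducible protein of mitochondrial quality control, moved more than any other of the 30 genes. It had 223, 240 and 182 counts in rescue, 101, 121 and 91 counts in knockdown and 1, 0 and 4 counts in control libraries. The gene was near silent in control cells, low in knockdown cells at 4.38 ± 0.64 CPM, and higher in rescue cells at 9.13 ± 2.1 CPM (SD, n = 3 each). The ratio of summed counts, scaled for library size, was 61.4 in knockdown against control (exact 95% counting interval 26 to 190). For rescue against knockdown it was 2.05 (1.79 to 2.36), and for rescue against control 126 (53.7 to 389). These intervals cover counting error only. The adjusted p of SPATA18 was 2.6e-11 in knockdown against control, 0.0043 in rescue against knockdown and 1.5e-13 in rescue against control.

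The bases before the SPATA18 start are shown because SPATA18 had the widest gap between groups, and no p53 decamer was found in its window. CG dinucleotides, the sites of DNA methylation, are in capitals, and 11 lie in this stretch (GRCh38.p14, chr4:52051054-52051303, plus strand). The whole 300-base window held 18 CG dinucleotides. The median was 14 over all 35116 windows and 25.5 over the 36 windows of the p53 target genes. Methylation was not measured in this series.
SPATA18: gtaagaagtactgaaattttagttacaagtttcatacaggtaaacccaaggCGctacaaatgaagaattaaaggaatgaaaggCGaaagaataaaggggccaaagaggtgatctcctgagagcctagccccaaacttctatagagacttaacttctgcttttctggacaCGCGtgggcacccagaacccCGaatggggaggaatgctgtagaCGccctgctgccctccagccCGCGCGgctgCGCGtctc

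TP53I3, a quinone oxidoreductase also called PIG3, had 4.85, 3.45 and 4.23 CPM in rescue, 2.9, 2.57 and 3.27 CPM in knockdown and 1.91, 1.21 and 1.27 CPM in control libraries. The 3 groups did not overlap. TP53I3 rose by 0.98 ± 0.29 in knockdown (adjusted p = 0.0089) and by 1.5 ± 0.28 in rescue (adjusted p = 9.6e-05), each against control, while 0.52 ± 0.27 in rescue against knockdown was not called (adjusted p = 0.25). FDXR, the mitochondrial reductase that feeds electrons to steroid-making cytochromes and iron-sulphur cluster assembly, had 61.5 to 69.5 CPM in rescue, 53.5 to 67.4 CPM in knockdown and 49.6 to 57.7 CPM in control libraries. Knockdown overlapped both other groups. FDXR rose by 0.27 ± 0.09 in rescue against control (adjusted p = 0.023). That call was lost without rescue replicate 2 (adjusted p = 0.13) or control replicate 1 (adjusted p = 0.086), and FDXR was called in knockdown against control without knockdown replicate 1 alone (adjusted p = 0.031). SESN1, a sestrin that restrains mTORC1 signalling, had 95.9, 103 and 98.6 CPM in rescue, 84.7, 106 and 83.6 CPM in knockdown and 75.6, 91.6 and 96.8 CPM in control libraries, and passed no test.

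TIGAR, a phosphatase that turns sugar away from glycolysis, had only 8, 11 and 8 counts in rescue, 2, 11 and 6 counts in knockdown and 1, 21 and 1 counts in control libraries. Control replicate 2 held 21 of the 23 control counts, and TIGAR passed no test. In GENCODE v29, another gene on the same strand covers 42.6% of its exon length, and reads that fall in both genes could be left uncounted, so its level is uncertain.

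Over all 9 libraries, the median of the 30 genes' mean levels was 94.2 CPM, above 88.3% of the genes tested, whose own median was 12.5 CPM. Per kilobase of annotated exon, CDKN1A (158 CPM per kilobase) and CCNG1 (145) led, followed by GADD45A (68.1), TNFRSF10B (43.9) and TP53INP1 (41.9). The lowest were TP53I3 (1.23), SPATA18 (0.916) and TIGAR (0.0831). The exon length is the union of all annotated transcripts, which lowers the value of genes with long rare transcripts.

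**Figure D3:**
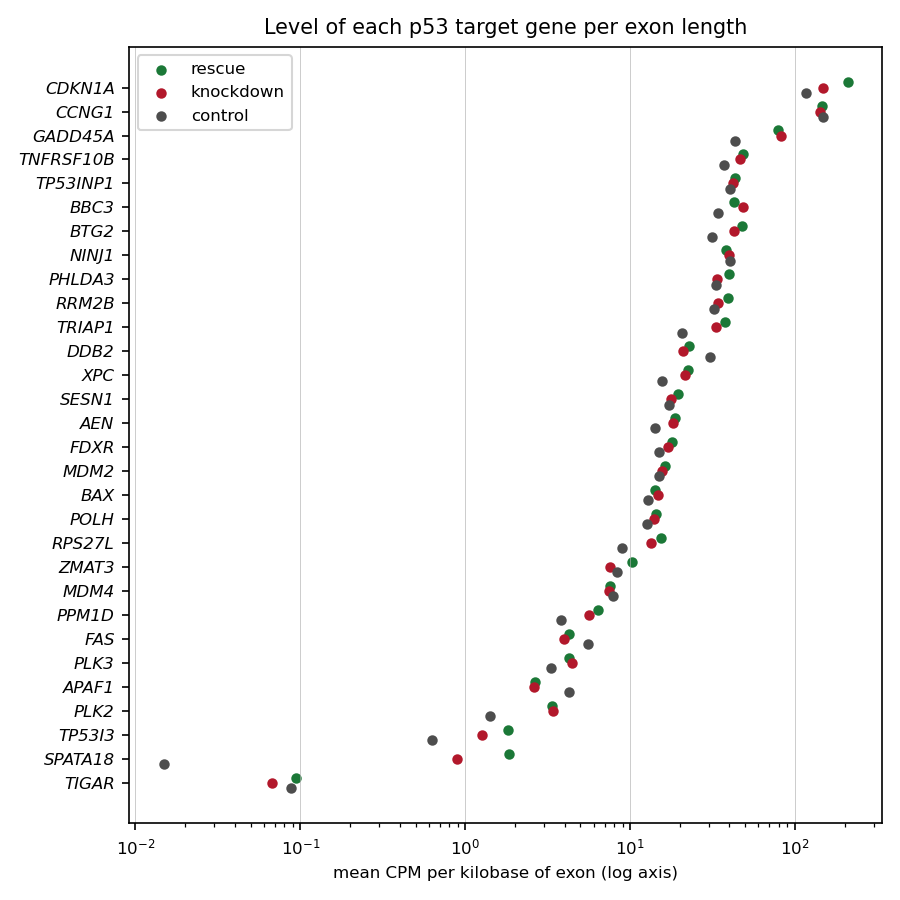
Mean level of each of the 30 p53 target genes in CPM per kilobase of exon (x axis, log scale), by group, ordered by the mean over all 9 libraries. Points are means of 3 rescue, 3 knockdown or 3 control libraries. CDKN1A and CCNG1 lie highest, and SPATA18 has the widest gap between groups.

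Libraries within a group differed in these genes too. Control replicate 1 was the lowest control library for 22 of the 30 genes, where it was the lowest for 34.9% of all genes tested. Rescue replicate 1 was the lowest rescue library for 18 of the 30, against 33.9% of all genes. Knockdown replicate 2 was the highest knockdown library for 18 of the 30, against 33.8% of all genes.

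A further 60 p53 targets were listed beside the 30 genes, and 56 passed the filter. This list too was chosen with earlier results of these data known, so it is not an independent check of the 30 genes. In knockdown against control 16 of the 56 rose and 13 fell, with a median log2 change of −0.04. In rescue against knockdown 5 rose and 2 fell, and in rescue against control 17 rose and 16 fell. As shares of the 56, 28.6% rose and 23.2% fell in knockdown against control (16.5% and 15.6% of all genes), 8.93% and 3.57% in rescue against knockdown (5.2% and 4.88%), and 30.4% and 28.6% in rescue against control (19% and 18.8%). Here rises and falls were thus about as many in both comparisons with control. TNFRSF10D, a decoy receptor for TRAIL, had 246, 269 and 266 CPM in rescue, 211, 218 and 181 CPM in knockdown and 121, 129 and 135 CPM in control libraries. Like CDKN1A it formed 3 steps, with rises of 0.66 ± 0.08 in knockdown against control (adjusted p = 7.2e-08) and 0.36 ± 0.08 in rescue against knockdown (adjusted p = 0.0019). TRAF4, a signalling adaptor, had 214, 225 and 207 CPM in rescue, 211, 226 and 237 CPM in knockdown and 118, 124 and 132 CPM in control libraries. It rose by 0.85 ± 0.07 in knockdown against control (adjusted p = 2.2e-10).

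GDF15, a secreted stress cytokine, was the most abundant of these named genes, with 15314, 17251 and 16751 CPM in rescue, 17459, 21178 and 18949 CPM in knockdown and 12230, 12713 and 12865 CPM in control libraries. It rose by 0.61 ± 0.09 in knockdown against control (adjusted p = 5.1e-06). Other targets fell. SPHK1, a lipid kinase of sphingosine, had 6.08, 6.1 and 6.93 CPM in rescue, 5.15, 7.57 and 5.43 CPM in knockdown and 17.4, 16.8 and 13.7 CPM in control libraries, and fell by 1.40 ± 0.17 in knockdown against control (adjusted p = 1.8e-07). THBS1, the matrix protein thrombospondin, had 0.294, 0.562 and 0.337 CPM in rescue, 0.229, 0.0421 and 0.46 CPM in knockdown and 6.36, 6.36 and 6.36 CPM in control libraries, and fell by 4.71 ± 0.42 in knockdown against control (adjusted p = 5.7e-10). PERP, a desmosome protein tied to cell death, fell by 0.49 ± 0.07 in knockdown against control (adjusted p = 4.1e-06) and by a further 0.31 ± 0.07 in rescue against knockdown (adjusted p = 0.0045).

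Of 25 genes that act on p53, 24 passed the filter. In knockdown against control 3 rose and 6 fell, in rescue against knockdown 1 rose and 3 fell, and in rescue against control 4 rose and 7 fell. In either direction 37.5%, 16.7% and 45.8% of the 24 were called in these comparisons, near the 32.1%, 10.1% and 37.8% of all genes tested.

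CDKN2A, whose locus makes the cyclin-dependent kinase inhibitor p16 and the MDM2 inhibitor ARF from shared exons, had 15, 13.2 and 11.9 CPM in rescue, 25, 25 and 30.2 CPM in knockdown and 27.4, 27.1 and 29.2 CPM in control libraries. It was low in rescue alone, with knockdown and control overlapping, and fell by 1.00 ± 0.12 in rescue against knockdown (adjusted p = 8.9e-07). One row counts both products, so they could not be separated. ATM, the kinase that signals DNA breaks to p53, had 51.6, 54 and 59.1 CPM in rescue, 70.5, 58.8 and 70.3 CPM in knockdown and 88.1, 87 and 81.2 CPM in control libraries. It fell by 0.36 ± 0.09 in knockdown against control (adjusted p = 0.0017) and by 0.28 ± 0.09 in rescue against knockdown (adjusted p = 0.039). USP7, which takes ubiquitin off MDM2 and p53, was the gene that rose in rescue against knockdown, by 0.29 ± 0.07 (adjusted p = 0.0071).

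**Figure D4:**
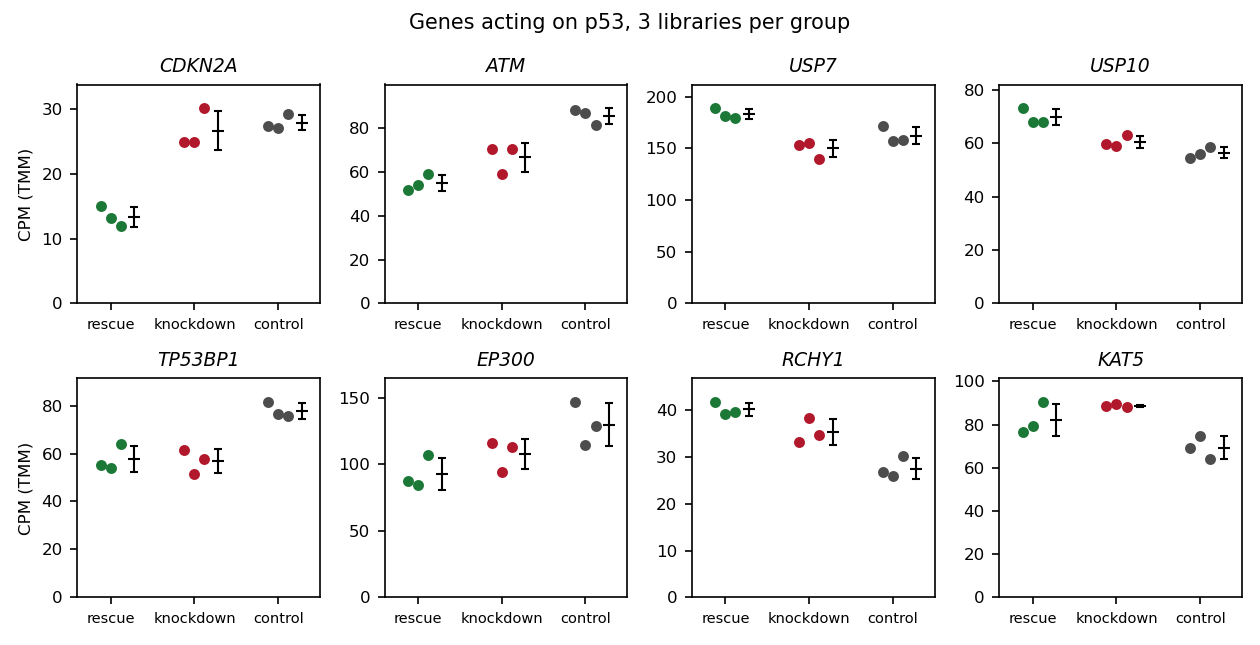
Levels in CPM (y axis, from 0) of 8 genes that act on p53, in each library, with rescue, knockdown and control from left to right. Points are libraries and bars the mean ± SD of 3. CDKN2A is low in rescue alone, ATM is lowest in rescue and highest in control, and TP53BP1 is highest in control with rescue and knockdown overlapping below it. Other genes cover 28.7% of the exon length of TP53BP1 and 38.6% of that of KAT5, so both levels are uncertain.

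Activated p53 lowers many cell-cycle genes through p21 and the DREAM repressor complex, and 22 such genes were listed. In knockdown against control 5 rose and 1 fell, in rescue against knockdown 6 rose, and in rescue against control 13 rose, with median log2 changes of 0.13, 0.19 and 0.29. The 22.7% that rose in knockdown against control is near the 16.5% of all genes tested, while 27.3% rose in rescue against knockdown and 59.1% in rescue against control, beside 5.2% and 19% of all genes. The 13 that rose in rescue did so in a group that also had more CDKN1A RNA than control. Any part of p21 or p53 in the levels of these genes was not tested. CCNB2, a mitotic cyclin, averaged 122 ± 5.37 CPM in rescue, 109 ± 6.87 CPM in knockdown and 66.9 ± 5.8 CPM in control (SD, n = 3 each). It rose by 0.71 ± 0.08 in knockdown against control (adjusted p = 4.5e-08). CCNA2, the cyclin of S phase and of entry into mitosis, rose by 0.40 ± 0.08 in knockdown against control (adjusted p = 0.00037) and by 0.42 ± 0.08 in rescue against knockdown (adjusted p = 0.00077). TOP2A, the topoisomerase that untangles replicated chromosomes, averaged 485 ± 28.7 CPM in rescue, 398 ± 16.3 CPM in knockdown and 395 ± 9.39 CPM in control, and rose by 0.29 ± 0.07 in rescue against knockdown (adjusted p = 0.008).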

How the data were processed

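The authors deposited 1 table of raw counts per gene for each of 9 libraries. The submitters' processing notes list the tools cutadapt, FastQC, HISAT2 and HTSeq and the build hg19. Tool versions, strand handling and the library kit were not found in the labels. From these counts, edgeR 4.0.16 (R 4.3.3) modelled the 3 group means over all 9 libraries, using TMM scaling and a robust quasi-likelihood test with 6 residual degrees of freedom. Rows naming no gene were left out: fragments in no feature made up 48.8 to 50.7% of each table's total and gene rows 40.3 to 42.9%. In all, 18389 of 60880 genes passed filterByExpr (minimum count 10). P-values were Benjamini-Hochberg adjusted over all genes kept, with a threshold of 0.05. CPM use TMM-scaled library sizes. Standard errors are the absolute log2 change divided by the square root of F. The pipeline was tested on simulated data. Alternatives were DESeq2 1.42.0, limma voom 3.58.1, other scaling, no filter, no mitochondrial genes, a replicate block, 2 groups alone and each library left out.

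The members and all lists, and the rule that named genes of the other lists (up to 4 per comparison and direction with the smallest adjusted p among those called), were chosen with earlier results of these data known. Gene IDs were matched to symbols by table. Exon lengths and overlaps are from GENCODE v29 (GRCh38), so no coordinates of it are printed. Gene counts of 20300744 to 26459528 per library limit the precision for TIGAR and for control values of SPATA18. Some genes of the lists are not reported here.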

Additional observations from a re-analysis of the deposited data

How the results depend on the processing

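The numbers of p53 targets called stayed within 1.5 times of those reported under every alternative run. Leaving out each library in turn gave 15 to 18 called in knockdown against control (12 to 15 higher, 3 to 3 lower), 3 to 4 in rescue against knockdown and 18 to 20 in rescue against control (15 to 18 higher, 2 to 3 lower). Over all genes, leaving out 1 library gave 4858 to 5788 called in knockdown against control, 1196 to 2364 in rescue against knockdown, with the fewest without rescue replicate 1, and 5809 to 6995 in rescue against control. No label pairs the replicate numbers. Deviations of same-numbered libraries correlated at −0.037 to 0.077, those of differently numbered ones at −0.089 to 0.077. With a replicate block, 17, 4 and 21 targets were called in knockdown against control, rescue against knockdown and rescue against control, and PLK3 gained a call in rescue against control (adjusted p = 0.03). It also gained one with no filter (adjusted p = 0.044) and without rescue replicate 1 or control replicate 2 (adjusted p = 0.021 and 0.018). Log2 changes that turned sign had not been called. In rescue against knockdown, leaving out 1 library gave −0.06 to 0.085 for AEN, −0.10 to 0.099 for APAF1, −0.025 to 0.11 for CCNG1, −0.0056 to 0.23 for FAS, −0.011 to 0.16 for FDXR, −0.15 to 0.015 for GADD45A, −0.02 to 0.11 for MDM2, −0.072 to 0.13 for MDM4, −0.18 to 0.14 for PLK2, −0.18 to 0.086 for PLK3 and −0.0079 to 0.13 for XPC. PLK2 was 0.0012 with RLE scaling and 0.018 with limma voom. In knockdown against control the ranges were −0.12 to 0.015 for CCNG1, −0.17 to 0.016 for MDM4, −0.091 to 0.047 for NINJ1, −0.003 to 0.035 for PHLDA3, −0.016 to 0.19 for RRM2B, −0.062 to 0.13 for SESN1 and −0.98 to 2.57 for TIGAR, which was 0.068 with the replicate block and 0.66 with limma voom. In rescue against control they were −0.074 to 0.039 for CCNG1, −0.17 to 0.053 for MDM4 and −0.43 to 3.04 for TIGAR. The cause was not tested. Of the single-gene values of called targets, 636 kept direction and call and 20 kept direction alone. Depth limits TIGAR, with at most 21 counts per library, and SPATA18 in control, with at most 4.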
